A study of Homo sapiens with 16 samples.

Results

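The SLC39 family, also called ZIP proteins, was examined in HAP1, a near-haploid human line derived from a chronic myeloid leukemia. The 10 family members SLC39A1, SLC39A3, SLC39A6, SLC39A7, SLC39A8, SLC39A9, SLC39A10, SLC39A11, SLC39A13 and SLC39A14 were taken by symbol from the 33121 entries of the deposited count table. The libraries are poly-A RNA, read in pairs of 100 bases. There were 16 libraries in 4 groups of 4. The first group has the genotype SLC30A10_delta, called the SLC30A10 knockout, and the second has the genotype SLC30A10+/+, called the SLC30A10 control set. In the third group a different gene is deleted (the second knockout), and its matching wild-type libraries form the second control set. By their labels both control sets are the same line, with 1 identifier, and either knockout has a separate one, so a deletion and the line that carries it cannot be told apart. The protocols name no added metal in any group and do not say whether the libraries of a group came from separate cultures, so p-values measure only the spread between these libraries.

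ZIP proteins move zinc and other divalent metals into the cytosol, from outside the cell or out of an organelle, whereas SLC30 proteins move metal the other way. SLC39A8 and SLC39A14 carry manganese as well as zinc, iron and cadmium, and SLC30A10 exports manganese from the cell. In people, loss of SLC30A10 or of SLC39A14 leads to manganese accumulation with parkinsonism or dystonia, and loss of SLC39A8 leads to manganese deficiency.

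Library totals lay between 16058856 and 16648151 counts, and replicate pairs differed by 1.60 to 6.43 times the sampling variance (chi-square per degree of freedom). The SLC30A10 control library 3 differed most from the others of its set, at 3.90 to 6.38. In the second knockout all pairs lay between 2.77 and 6.43, and the highest value of all was that of its libraries 1 and 4. SLC30A10 itself had 6 to 9 counts in its control set and 3 to 11 counts in its knockout, so RNA at this level did not show the deletion. VIM, KRT18, BCR and ABL1 were detected in every library. KRT8 was also detected, at 41 to 168 counts. Of 6 genes of other blood cells, MPO and HBG1 were at 0 in all libraries, and the 6 summed to 0 to 3 counts a library in the SLC30A10 control set, 1 to 6 in the SLC30A10 knockout, 1 to 2 in the second control set and 1 to 3 in the second knockout.

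Levels were first compared between the 9 members with a usable level. For this they were scaled per kilobase of annotated exon (GENCODE 29), in CPM (counts scaled to a library size of 1000000). SLC39A6 and SLC39A1, both zinc importers of the plasma membrane, stood highest, with means over the 4 groups of 48.4 and 44.9 CPM per kilobase. Their libraries overlapped, from 41.9 to 58.1 for SLC39A6 and from 40.3 to 52.7 for SLC39A1. SLC39A14 followed at 29.2, with the widest range, from 18.6 to 46.2. SLC39A10, a zinc importer related to SLC39A6, had a mean of 17.4 CPM per kilobase. SLC39A9, a zinc transporter of the Golgi and plasma membrane, had a mean of 12.8, and its libraries lay below all those of SLC39A10. SLC39A3 (7.08) and SLC39A8 (6.18) overlapped each other. SLC39A13, of the Golgi and secretory pathway, had 4.73 and SLC39A11, the most divergent member of the family, had 1.66 CPM per kilobase. SLC39A14 was therefore the more abundant of the 2 manganese importers in every group. These values rest on all annotated exons, and the isoforms in use were not analysed here.

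**Figure D1:**
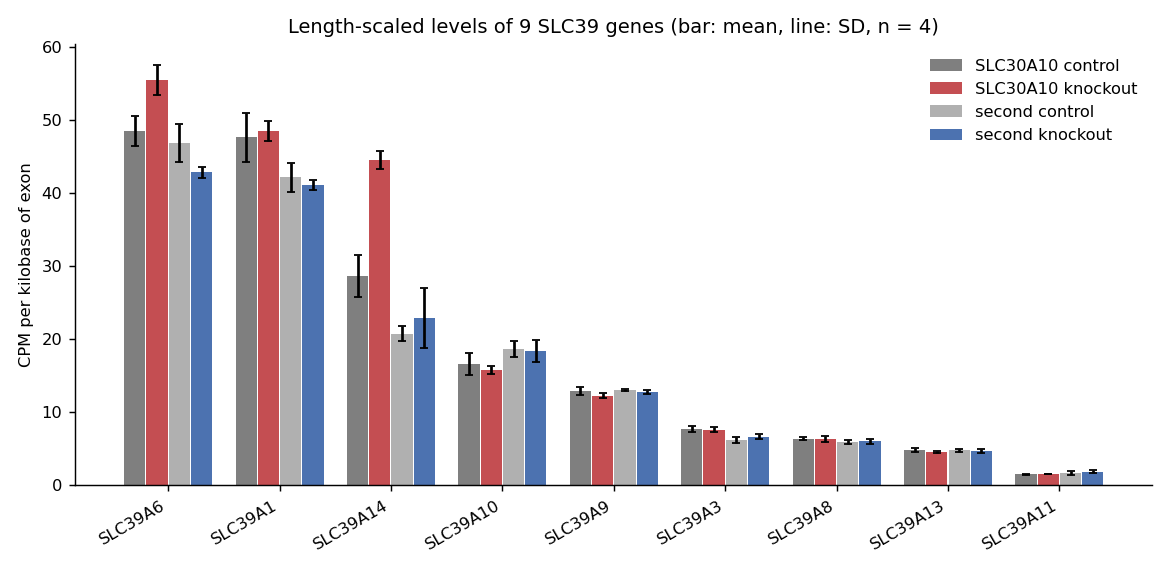
Mean level of 9 SLC39 genes in CPM per kilobase of annotated exon (vertical axis, from 0), for the 4 groups of 4 libraries, with lines for the SD. SLC39A14 stands at 44.6 in the SLC30A10 knockout against 28.6 in its control set, and SLC39A8 stays between 5.94 and 6.42 in all groups.

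SLC39A14 was then taken as a share of the summed CPM per kilobase of the 9 tested members. SLC39A7, listed at 0, adds nothing to this sum, and SLC39A4 and other family genes outside the set are left out. The share of SLC39A14 was 16.3% ± 1.02 (SD, n = 4) in the SLC30A10 control set and 22.6% ± 0.534 (SD, n = 4) in the SLC30A10 knockout. Its share was 13.0% ± 0.625 (SD, n = 4) in the second control set and 14.5% ± 2.09 (SD, n = 4) in the second knockout. The summed level was 175 ± 6.71 CPM per kilobase (SD, n = 4) in the SLC30A10 control set and 197 ± 1.99 in the SLC30A10 knockout. Without SLC39A14 the sums were 146 ± 3.93 and 152 ± 1.58, so most of the gap between the sums was that of SLC39A14.

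SLC39A7, which releases zinc from the endoplasmic reticulum, gave no usable level. It lies on chromosome 6 at 33200867 to 33204437 (GRCh38.p14, RefSeq). The table lists 6 entries for it, the plain symbol and numbered copies, and all 6 were at 0 in all 16 libraries. No other member had a numbered copy. Of the 20 protein-coding genes nearest to it on chromosome 6, all 20 had more than 1 entry, 13 had an entry at 0 throughout and 3 (HLA-DMA, HLA-DOA and HLA-DPA1) were at 0 in every entry. The adjacent genes RXRB and HSD17B8 held 226 to 332 and 5 to 17 counts a library, each over 6 entries. For comparison, 3 counts correspond to 0.181 to 0.187 CPM, but the part of the numbered copies in the 0 of SLC39A7 was not tested. It is only listed at 0 here and entered no test, and 9 members passed the filter on low counts in all comparisons.

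The first comparison set the SLC30A10 knockout against its controls and asked whether loss of a manganese exporter goes with altered RNA of metal importers. SLC39A14 and SLC39A6 rose, and 7 of the 9 tested members did not pass the test. Thus 2 of 9 members (22.2%) were called, against 41.4% of all 15569 tested genes (adjusted p under 0.05, edgeR quasi-likelihood test with Benjamini-Hochberg adjustment over all tested genes). Both calls were higher, against 21.2% of all genes called higher. None was lower, against 20.2% of all genes, with 0 members lower at an unadjusted p under 0.05 and 0 by DESeq2. The median log2 fold change of the members was -0.02, against -0.0048 over all tested genes, and their median absolute change was 0.07 against 0.16.

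SLC39A14 (ENSG00000104635.13) lies on the plus strand of chromosome 8, from 22367278 to 22434129 (GRCh38.p14, RefSeq). Its levels in the SLC30A10 control set were 186, 201, 226 and 182 CPM in libraries 1 to 4. In the SLC30A10 knockout they were 303, 302, 312 and 321 CPM. All 4 knockout libraries lay above all 4 control libraries, as did 1 group above the other, in either direction, for 38.3% of tested genes. The log2 fold change was 0.64 ± 0.08 (SE), a 1.56-fold rise (edgeR, adjusted p 2.06e-07). The highest control value was that of library 3, and without that library the log2 fold change was 0.71 ± 0.08. Against both control sets pooled it was 0.85 ± 0.12.

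**Figure D2:**
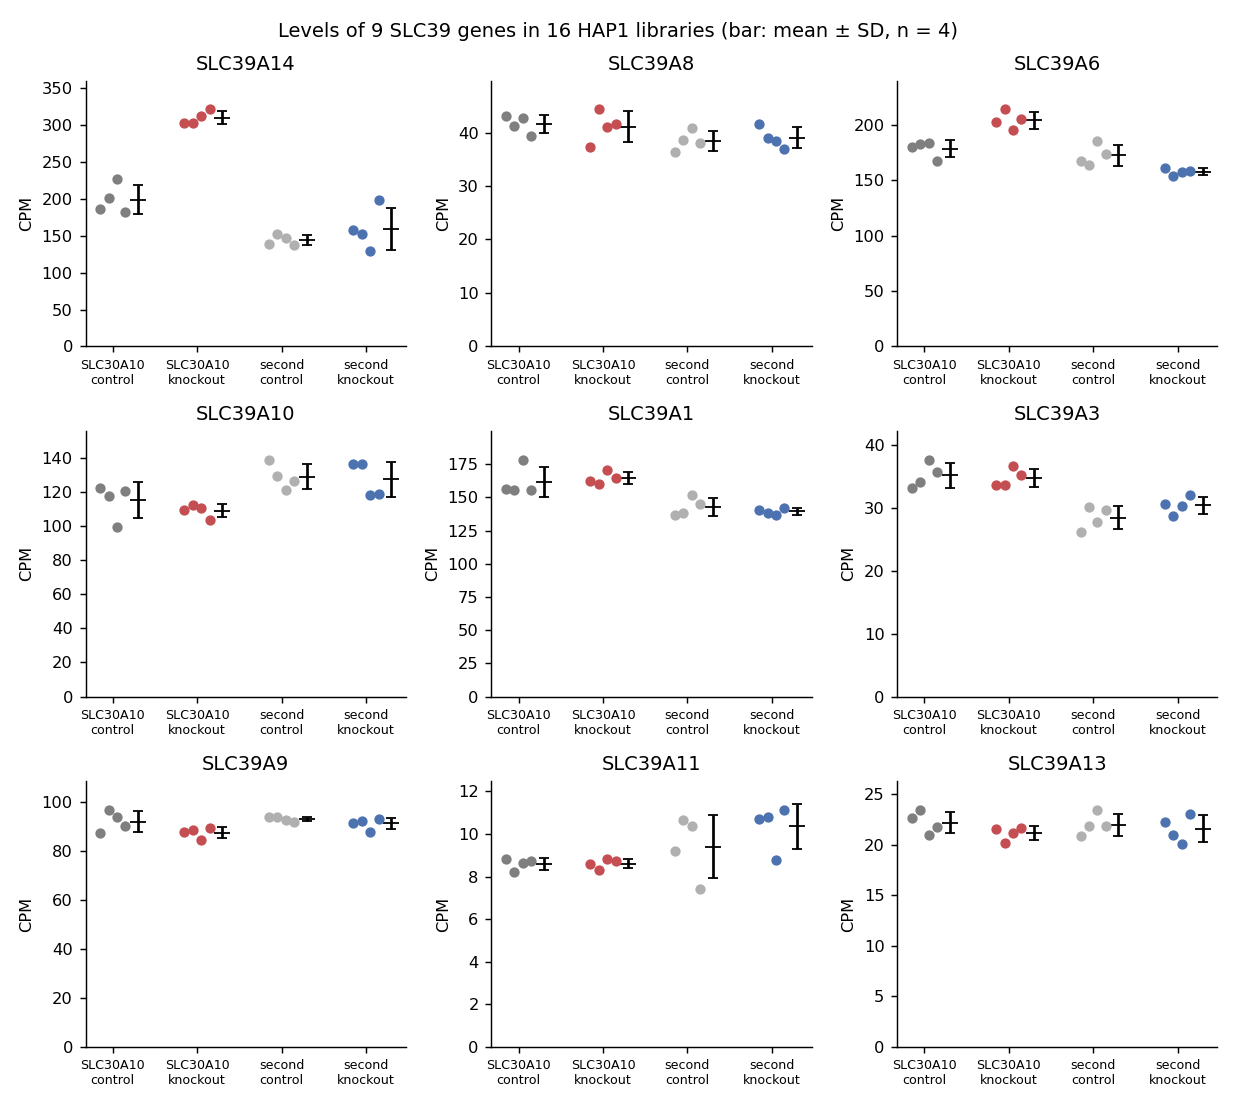
CPM of 9 SLC39 genes in each of 16 libraries (points, vertical axes from 0), by group, with the mean and SD beside the points. SLC39A14 stands apart in the SLC30A10 knockout, at 302 to 321 CPM, and SLC39A8 overlaps between all groups.

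The rise of SLC39A14 was shared by the genes around it. Of the 20 tested genes nearest to it (RefSeq order, 10 on each side), 17 were called higher and 1 lower in the SLC30A10 knockout. Over all tested genes 21.2% were called higher and 20.2% lower. The median log2 fold change of the 20 was 1.11. The adjacent genes POLR3D, a subunit of RNA polymerase III, and PPP3CC, a catalytic subunit of calcineurin, rose by 0.85 ± 0.05 and 1.03 ± 0.06 on the log2 scale. The change of SLC39A14 was exceeded by 16 of the 20. The other called member, SLC39A6, had neighbours with a median of -0.03, of which 3 were called higher and 5 lower. For the neighbours of the 8 tested members other than SLC39A14, the median log2 fold change in this comparison lay between -0.12 (SLC39A8) and 0.08 (SLC39A10). Whether SLC39A14 would have changed without its surroundings was not tested.

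**Figure D3:**
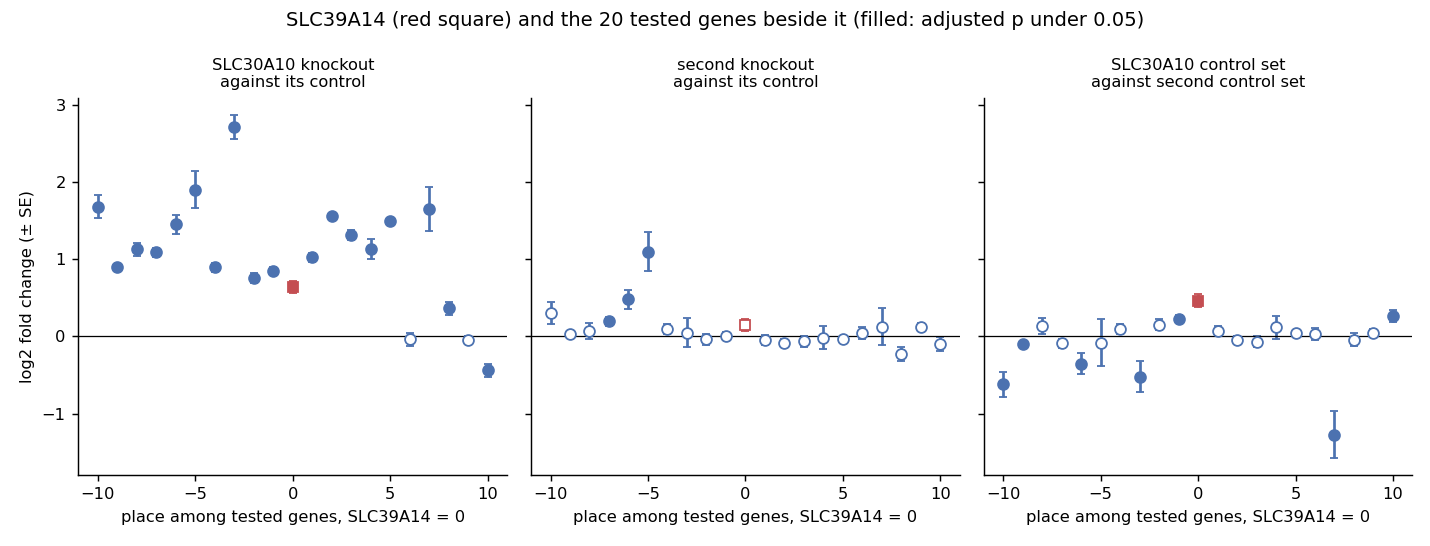
Log2 fold change with SE (vertical axis) of SLC39A14, red square, and the 10 tested genes on each side of it in chromosome order (horizontal axis), in 3 comparisons. In the SLC30A10 knockout the median of the 20 neighbours was 1.11, above the 0.64 of SLC39A14, whereas between the control sets SLC39A14 at 0.46 lay above all 20.

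SLC39A6, also known as LIV-1, is a zinc importer on the minus strand of chromosome 18, from 36108531 to 36129340. Its SLC30A10 control libraries 1 to 4 held 180, 182, 184 and 167 CPM. The SLC30A10 knockout libraries held 202, 214, 195 and 206 CPM and did not overlap with the controls. The log2 fold change was 0.19 ± 0.04 (SE), a 14.4% rise (edgeR, adjusted p 5.17e-04). The size was small beside that of SLC39A14, but it was above the spread between libraries.

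SLC39A8, the other manganese importer, lies on the minus strand of chromosome 4, from 102251041 to 102345482. It held 43.0, 41.3, 42.7 and 39.4 CPM in the SLC30A10 control libraries and 37.3, 44.3, 41.1 and 41.5 CPM in the SLC30A10 knockout. The knockout libraries enclosed the whole control range. The log2 fold change was -0.02 ± 0.06 (SE) (edgeR, adjusted p 0.816), and its 95% interval ran from -0.13 to 0.09. A change of the size seen for SLC39A14 lay outside this interval.

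The other 6 tested members did not pass the test in the SLC30A10 knockout, with log2 fold changes from -0.08 (SLC39A10) to 0.03 (SLC39A1). For SLC39A10 the control libraries held 122, 118, 99.4 and 121 CPM, where library 3 was the lowest, and the knockout libraries 104 to 113 CPM. Its log2 fold change was -0.08 ± 0.06 (SE) (adjusted p 0.315), and without the SLC30A10 control library 3 it was -0.14 ± 0.05 (edgeR, adjusted p 0.0363). SLC39A9 had -0.07 ± 0.04, and SLC39A13, which is mutated in a form of Ehlers-Danlos syndrome, had -0.07 ± 0.06 (log2, SE). SLC39A1, SLC39A3 and SLC39A11 had 0.03 ± 0.04, -0.02 ± 0.06 and 0.00 ± 0.10. The interval of SLC39A11, the least abundant of the tested members, was the widest, from -0.20 to 0.21 on the log2 scale.

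**Figure D4:**
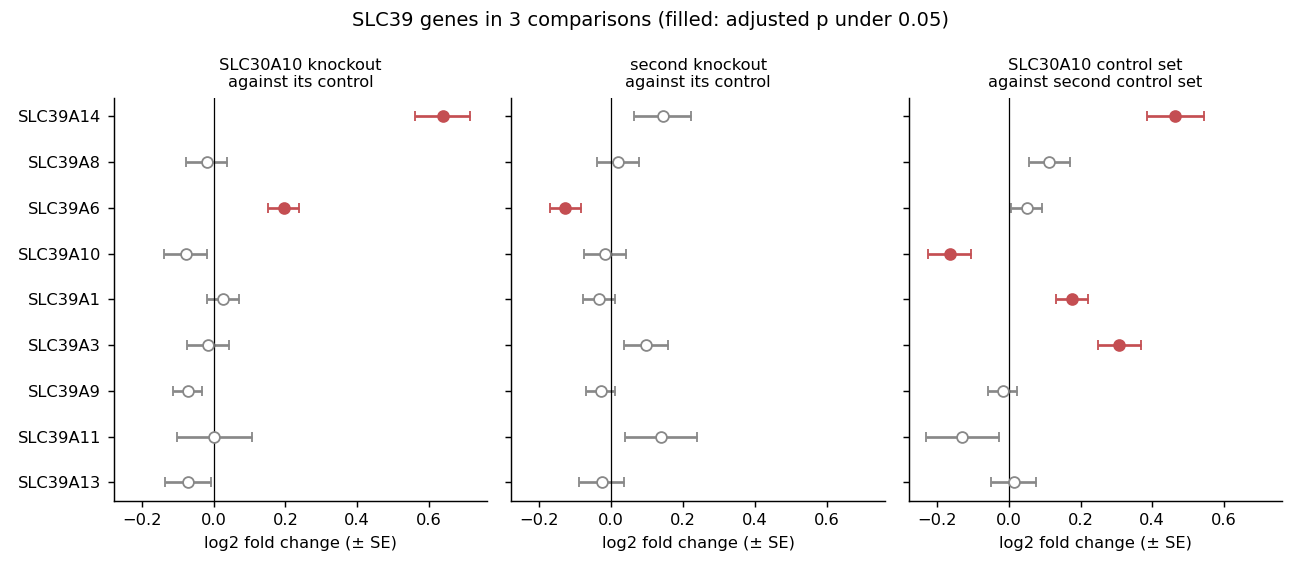
Log2 fold changes with SE (horizontal axes) of 9 SLC39 genes in the SLC30A10 knockout, the second knockout and between the control sets, where filled points have an adjusted p under 0.05. Filled points number 2, 1 and 4, and SLC39A14 has the largest value in each panel, at 0.64, 0.14 and 0.46. The middle value is not filled and lies close to that of SLC39A11.

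The second knockout was compared with its own control set in the same way. SLC39A6 fell by a small amount, and 8 of the 9 tested members did not pass the test. The count of 1 in 9 (11.1%) compares with 13.7% of all tested genes, of which 7.03% were called lower. None rose, against 6.67% of all genes, with 0 members higher at an unadjusted p under 0.05 and 0 by DESeq2. The median log2 fold change of the members was -0.02, against -0.0024 over all tested genes.

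SLC39A6 held 167, 163, 185 and 174 CPM in the second control libraries 1 to 4. In the second knockout it held 161, 154, 157 and 158 CPM. The groups did not overlap, as was the case for 16.3% of tested genes, but the lowest control library lay close to the highest knockout library. The log2 fold change was -0.13 ± 0.04 (SE), a percent change of -8.48 (edgeR, adjusted p 0.0435). This call was lost in 15 of 25 alternatives. Among them were the fits without the second control library 3 or 4, without any 1 of the 4 second knockout libraries, and without library 1 or 2 of the SLC30A10 control set or 1 or 4 of the SLC30A10 knockout, with adjusted p-values of 0.0578 to 0.227 and log2 fold changes of -0.13 to -0.09.

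SLC39A14 had a larger SD in the second knockout (28.5 CPM) than in any of the other 3 groups. Its second control libraries held 139, 153, 147 and 138 CPM and its second knockout libraries 158, 152, 129 and 198 CPM. Knockout library 4 was the highest and library 3 the lowest of both groups. The log2 fold change was 0.14 ± 0.08 (SE) (adjusted p 0.268), and without the second knockout library 3 it was 0.23 ± 0.07 (edgeR, adjusted p 0.0274). Without the second knockout library 4 it was 0.02 ± 0.06 (edgeR, adjusted p 0.859). Against both control sets pooled the sign turned, to -0.11 ± 0.12, and it did not pass. Its 20 neighbours had a median of 0.04 in this comparison, with 3 called higher and 0 lower at the same threshold. The shares over all tested genes were 6.67% higher and 7.03% lower.

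SLC39A8 in the second knockout held 41.6, 39.1, 38.3 and 37.0 CPM, within or just above the 36.4 to 40.9 CPM of the second control set. Its log2 fold change was 0.02 ± 0.06 (SE), with a 95% interval from -0.09 to 0.13. The remaining 6 tested members had log2 fold changes from -0.03 (SLC39A1) to 0.14 (SLC39A11).

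The changes in the 2 knockouts were then tested against each other for each member. The difference passed for SLC39A14 and SLC39A6, 2 of 9 members (22.2%), against 31.3% of all tested genes, and both were positive, against 16.7% of all genes. For SLC39A14 the effect in the SLC30A10 knockout exceeded that in the second knockout by 0.49 ± 0.11 on the log2 scale (SE) (edgeR, adjusted p 0.00113). For SLC39A6, higher in one knockout and lower in the other, the difference was 0.32 ± 0.06 (edgeR, adjusted p 1.38e-04). The difference did not pass for SLC39A8 (-0.04 ± 0.08) or for the other 6 tested members.

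The control sets were compared because they carry the same line identifier but are labelled as separate sets. This comparison shares its libraries with both knockout comparisons, so their values are given side by side and not as independent results. SLC39A14, SLC39A3 and SLC39A1 were higher and SLC39A10 was lower in the SLC30A10 control set. These 4 of 9 members (44.4%) compare with 39.3% of all tested genes, of which 18.5% were higher and 20.8% lower. The median log2 difference of the members was 0.05, against -0.0061 over all tested genes, and 3 members had libraries that did not overlap, against 36.3% of tested genes.

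For SLC39A14 the log2 difference between the control sets was 0.46 ± 0.08 (SE) (edgeR, adjusted p 5.57e-05). The lowest SLC30A10 control library, at 182 CPM, lay above the highest second control library, at 153 CPM. Of its 20 neighbours 2 were called higher and 5 lower here, against 18.5% and 20.8% of all tested genes. The median of the 20 was -0.0064, and none had as large a difference in this direction. The difference between the control sets was thus 0.46 where the knockout effect was 0.64. The order of the group means was SLC30A10 knockout at 309, SLC30A10 control set at 199, second knockout at 159 and second control set at 144 CPM. Only the first step of that order separated all libraries, while the second knockout overlapped with both groups beside it.

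SLC39A3, a zinc importer of the plasma membrane on chromosome 19 (2732524 to 2740076, minus strand), held 33.3, 34.2, 37.7 and 35.7 CPM in the SLC30A10 control set and 26.2, 30.2, 27.8 and 29.7 CPM in the second control set. All libraries of the first set lay above those of the second. The log2 difference was 0.31 ± 0.06 (SE) (edgeR, adjusted p 2.22e-04). SLC39A1, on chromosome 1 (153959110 to 153968184, minus strand), held 157, 156, 178 and 155 CPM in the SLC30A10 control set, where library 3 stood apart. The second control set held 137, 138, 152 and 145 CPM, below every SLC30A10 control library. The log2 difference of SLC39A1 was 0.18 ± 0.04 (SE), with an adjusted p of 0.00266, and 0.13 ± 0.04 with an adjusted p of 0.0127 without the SLC30A10 control library 3 (edgeR quasi-likelihood). For both genes each knockout lay near its own control set, and the step between these pairs of groups was the only one at which libraries did not overlap.

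SLC39A10, on chromosome 2 (195613029 to 195737700, plus strand), was the only member called lower in the SLC30A10 control set. The second control set held 139, 130, 121 and 126 CPM against 99.4 to 122 CPM, so the sets overlapped. The log2 difference was -0.16 ± 0.06 (SE) (edgeR, adjusted p 0.0284). It did not pass without the SLC30A10 control library 3 (-0.09 ± 0.05, adjusted p 0.183), without the second control library 1 (-0.12 ± 0.06, adjusted p 0.139) or without the second control library 2 (-0.16 ± 0.07, adjusted p 0.0687). SLC39A6 (0.05 ± 0.04), SLC39A8 (0.11 ± 0.06), SLC39A9 (-0.02 ± 0.04), SLC39A11 (-0.13 ± 0.10) and SLC39A13 (0.01 ± 0.06) did not pass between the control sets (log2, SE).

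Across all 4 groups the members differed in how far their means moved. The highest group mean of SLC39A14 was 2.15 times its lowest, that of SLC39A6 1.29 times and that of SLC39A3 1.24 times. SLC39A13, SLC39A9 and SLC39A8 moved least, with ratios of 1.05, 1.06 and 1.08, and all neighbouring groups in the order of their means overlapped. For SLC39A11 the ratio was 1.20, but its second control libraries alone ran from 7.41 to 10.7 CPM.

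The tested genes outside the family whose log2 CPM followed SLC39A14 most closely over the 16 libraries were PQBP1 (Pearson r = 0.970), HSPA9 (0.958) and KCND2 (0.958). For SLC39A8 they were PPP2R2A (0.838), MTHFS (0.831) and FAM3C (0.825). The libraries form 4 groups, so the values for SLC39A14 can largely follow its group means, whose highest was 2.15 times the lowest. For SLC39A8 that ratio was only 1.08 and its groups overlapped. All these values are a description, with no test.

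Zinc-responsive transcription in vertebrates runs through MTF1, a zinc-finger factor that binds metal response elements and drives metallothioneins and SLC30A1. The core of that element was searched as TGCACNC or TGCGCNC, on both strands, in RefSeq promoter windows of 300 bases, from 250 before to 50 after a start (GRCh38.p14). The windows matched 9 members, and SLC39A14 was not matched. A core was present in 6 of their 15 windows (40.0%), against 37.3% of the windows of tested genes and 29.6% of all windows, and no member window held 2. The 5 that lie before a start are shown, as places in these windows where MTF1 could be looked for. The core is in capitals and each strand is read toward the gene.
SLC39A1: tcctccacagaTGCGCCCcagggccccag
SLC39A3: cgcttggtggcTGCGCCCgccgctcagcg
SLC39A6: tccccgcggcgcTGCGCGCggcggtaatt
SLC39A8: gccggcggtccTGCGCCCcggcgtggacg
SLC39A13: ccaaacggaagTGCGCCCtctacccgggt
They lie at chr1:153963756-153963784 (minus strand), chr19:2740187-2740215 (minus), chr18:36129341-36129369 (minus), chr4:102345584-102345612 (minus) and chr11:47408404-47408432 (plus). The core begins 236 bases before a start for SLC39A1, 128 for SLC39A3, 17 for SLC39A6, 119 for SLC39A8 and 175 for SLC39A13. For SLC39A1 and SLC39A13 this start lies inside the gene, and the window at the first start of the gene held no core. The 6th, of SLC39A10, begins at base 34 after a start that also lies inside the gene. A match of these letters is a description of the sequence and no binding site, and the members that hold one include called and uncalled genes in each comparison.

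The wider set of zinc and manganese handling genes held 33 genes, of which 26 were tested. It comprises SLC30 exporters, metallothioneins, MTF1, iron transport genes and manganese enzymes. Membrane transporters of the secretory pathway and lysosome, a protein kinase known to act on SLC39A7, and stress-response factors complete it. In the SLC30A10 knockout 13 of the 26 passed, 4 higher and 9 lower, with a median log2 fold change of -0.07. Over all tested genes 41.4% passed here, 21.2% higher and 20.2% lower, with a median of -0.0048. Against both control sets pooled, 5 of the 26 passed, 1 higher and 4 lower, beside 5004 of 15569 tested genes. Falls were seen for MT1E, a metallothionein (-0.66 ± 0.07), TFRC, the transferrin receptor (-0.55 ± 0.08), and ATF4, a stress-response transcription factor (-0.65 ± 0.09), all as log2 fold change with SE. Against pooled controls TFRC did not pass (-0.20 ± 0.19, edgeR, adjusted p 0.454).

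In the second knockout 3 of the 26 wider genes (11.5%) passed, 1 higher and 2 lower, against 13.7% of all tested genes, 6.67% higher and 7.03% lower. The count was 1 without the second control library 3 and 5 without the second knockout library 3. MT1E fell by 0.30 ± 0.08 (log2, SE) and passed in all 25 alternatives. ARG2, a mitochondrial manganese enzyme, had a log2 fold change of -0.15 ± 0.05 (edgeR, adjusted p 0.0233). It did not pass without library 1 or 3 of the second control set or 1 or 4 of the second knockout, or against pooled controls (-0.08 ± 0.05). Nor did ARG2 pass in the 8 libraries alone (edgeR, adjusted p 0.0573), with no filter on low counts (edgeR, adjusted p 0.0528) or at a threshold of 0.01. In the SLC30A10 knockout ARG2 had 0.20 ± 0.05, and against pooled controls it did not pass there either (0.12 ± 0.05, adjusted p 0.0727, edgeR). XBP1, a transcription factor of the unfolded protein response, held 124, 130, 119 and 103 CPM in the second control set and 131, 165, 105 and 223 CPM in the second knockout. These groups overlapped, and knockout library 4 was the highest. The log2 fold change of XBP1 was 0.39 ± 0.13 (edgeR, adjusted p 0.0403). It did not pass by DESeq2 (adjusted p 0.155), in the 8 libraries alone (adjusted p 0.116, edgeR) or with the replicate block (adjusted p 0.0558, edgeR). Nor did XBP1 pass at a threshold of 0.01. It also failed without library 1, 3 or 4 of the second control set or library 2 or 4 of the second knockout. Without the second knockout library 4 the log2 fold change was 0.17 ± 0.09.

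Between the control sets 12 of the 26 wider genes passed (46.2%), 9 higher and 3 lower, against 39.3% of all tested genes, 18.5% higher and 20.8% lower. Among the 12 were TFRC (0.84 ± 0.08) and MT1E (0.49 ± 0.07, log2 and SE), both higher in the SLC30A10 control set. MT1E has close relatives among the metallothioneins, and whether its reads were divided among them was not tested.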

How the data were processed

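The authors deposited whole-number counts per gene symbol, 1 column per library. HISAT2, featureCounts, DESeq2 and the builds hg38 and GRCh38 are named in the submitters' processing notes, without their roles. The annotation and the use of strand are not given in the sources used here. A second deposited table was not used, and its relation to these counts was not tested here.

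The tests used edgeR 4.0.16 under R 4.3.3. Its expression filter (minimum count 10, minimum total 15) left 15569 genes, and TMM factors scaled the libraries. All 16 libraries were fitted together with 4 group means, and quasi-likelihood F tests were adjusted by the Benjamini-Hochberg method over all tested genes, with a threshold of 0.05. The SE was derived from the log2 fold change and its F statistic, and 95% intervals are 1.96 SE on either side. DESeq2 1.42.0, other scalings and filters, the replicate block, the 8 libraries compared alone, pooled controls and leaving out each library in turn were the alternatives. The code was also run on simulated data with the same spread for every gene, unlike the real libraries. No result here rests on that run. RefSeq placed 91.1% of tested genes.

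All 10 members are named, with the 3 genes most like SLC39A8 and SLC39A14, the genes on either side of SLC39A14 (the rule allowed this for any called member), and, of the wider list, genes called in both knockouts or with the 3 smallest adjusted p-values in each. The members and lists were chosen with earlier results of these data known. The gene deleted in the second knockout is not reported here.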

Additional observations from a re-analysis of the deposited data

Results flagged for a closer look

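SLC39A1 in the SLC30A10 control set had 1 library far from the other 3. Library 3 held 178 CPM against 155 to 157 CPM, and the gap to its nearest neighbour was 0.946 of the whole range of the set, above the 95% limit of Dixon's test. Of 36 sets of 4 libraries examined for the tested members this was the only 1, where about 1.8 would be expected by chance.

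The effects of the knockouts differed for 2 members by the test of the difference itself. For SLC39A14 the effect of the SLC30A10 knockout minus that of the second knockout was 0.49 on the log2 scale, and for SLC39A6 it was 0.32. Among the genes beside SLC39A14, 16 of 20 also had a called difference in the same direction, against 16.7% of all tested genes. The median difference of the 20 was 0.93.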

How the results depend on the processing

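Of the 4 counts of called members, those of the SLC30A10 knockout (2), the difference of effects (2) and the control sets (4) stayed within 1.5 times under every alternative run, and ranged from 2 to 3, 2 to 2 and 3 to 4 when a library was left out. The count of 1 in the second knockout, SLC39A6, became 0 when scaling used DESeq2's size factors or raw library totals, when genes needed a mean count of 50, when the threshold was 0.01 and when the 8 libraries were fitted alone, each time with 1 member at an unadjusted p under 0.05. It became 2 with no filter on low counts, where SLC39A14 was added (adjusted p 0.0237, edgeR). It ranged from 0 to 1 when a library was left out. Without the second control library 3 no member had an unadjusted p under 0.05 (0), and without the second knockout library 3 the 1 called member was SLC39A14, higher, in place of SLC39A6. With DESeq2 it was 1. The replicate block gave 2, 1, 2 and 4 called members in the same order as the report. The labels do not say whether same-numbered libraries belong together. Their deviations correlated across genes on average at -0.0318 (SLC30A10 control set and knockout), 0.0472 (second control set and knockout) and 0.0179 (both control sets). Low averages over all genes cannot exclude a pairing, and the fit by pairing was kept as an alternative. No called member changed its direction under any alternative. The calls of SLC39A14 and SLC39A6 in the SLC30A10 knockout held in all 25 alternatives, with log2 fold changes of 0.59 to 0.85 and 0.16 to 0.22. Library totals alone also ended the call of SLC39A10 between the control sets (edgeR, adjusted p 0.0524). No scaling moved the median of all genes by as much as 0.1 on the log2 scale. With 122 to 184 counts a library, SLC39A11 had the least precise estimates.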

Other observations

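Of the 4 family genes outside the set described, SLC39A2, SLC39A5 and SLC39A12 had at most 5, 10 and 4 counts in any library. SLC39A4, an intestinal zinc importer, had 169 to 243 counts. Its values, chosen after they were seen, were a log2 fold change of 0.18 ± 0.09 (SE, adjusted p 0.0967) in the SLC30A10 knockout and -0.15 ± 0.09 (adjusted p 0.276) in the second knockout, and the difference of the effects was 0.33 ± 0.12 (edgeR, adjusted p 0.0386). It lies on chromosome 8 outside the stretch around SLC39A14, and its 20 neighbours had a median of -0.05 in the SLC30A10 knockout.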
